A study of Mus musculus with 10 samples.

Results

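The keratin-associated protein genes of the mouse were examined in RNA from whole ear skin. Members were all genes whose symbol begins with Krtap, and 57 of the 41388 genes in the count files met this rule. Of these, 32 had 10 or more counts summed over the 10 libraries, 20 had 1 to 9 counts, and 5 had none. The threshold of 10 fell between Krtap16-3 with 9 counts and Krtap19-9a, Krtap2-4 and Krtap4-8 with 10 counts each.

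Keratin-associated proteins form the matrix of the hair shaft, in which they are cross-linked through disulfide bonds to the hair keratins. The family is divided into cysteine-rich proteins and proteins rich in glycine and tyrosine. Its genes are short, have a single exon in most cases, lie in a few clusters, and are known to be transcribed late in hair shaft differentiation, in the growing phase of the hair cycle.

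Each library came from the whole ear of 1 C57Bl/6 mouse. The 6 Experimental mice and the 4 Littermate mice were all treated on the skin with MC903 (calipotriol), an analogue of vitamin D that inflames skin and causes itch, at 1 nM daily for 12 days, and no untreated skin was analysed here. Littermates are labelled wild type. The labels disagree on the Experimental genotype, since the sample labels give NaV1.8+ Jak1F/F and the series text gives NaV1.8+ Il4raF/F, so which floxed gene the mice carried is not settled here. NaV1.8 is a sodium channel of sensory neurons, whose cell bodies lie outside the ear, and the labels do not name the recombinase. The sources used here give no age, sex, hair cycle stage or batch, but Y-linked genes were expressed in all 10 libraries, as given below.

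Total counts lay between 11520348 and 41935183 in Experimental libraries and between 12865459 and 14324433 in Littermate libraries. A count of 3 was worth 0.0715 to 0.260 CPM (counts per 1000000 counts of the library) in a single library. All levels below are CPM scaled by TMM factors, unless they are given per kilobase of gene length (RPKM).

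The members lay on 5 chromosomes of mm10. Chromosome 11 held 23 of them between 99550130 and 99993994, of which 16 reached 10 counts and 4 (Krtap9-5, Krtap29-1, Krtap31-1 and Krtap31-2) had none. Chromosome 16 held 25 between 88610709 and 89571183, of which 14 reached 10 counts and Krtap6-3 had none. Both members on chromosome 10 reached 10 counts. None of the 5 members on chromosome 7 or the 2 on chromosome 1 did, and these together gave 8 and 7 counts over all libraries.

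Translation of the annotated coding sequences separated the clusters. Cysteine codons outnumbered glycine plus tyrosine codons in 32 members, and the reverse held in 24, of which 22 lay on chromosome 16. Krtap19-9a had no annotated coding sequence. Krtap3-1 on chromosome 11 had 20.4% cysteine codons and 7.14% glycine plus tyrosine codons. Krtap6-2 on chromosome 16 had 15.5% cysteine codons and 65.2% glycine plus tyrosine codons. Krtap13 lay next to the boundary, with 12.7% against 13.7%, and entered the glycine and tyrosine class. So did Krtap5-2 and Krtap5-3 on chromosome 7, with 34.6% and 35.1% cysteine codons and 0% tyrosine codons. Krtap24-1 and Krtap26-1 entered it with only 12.5% and 13.0% glycine plus tyrosine codons. The class is therefore wider than proteins with high glycine and tyrosine.

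**Figure D1:**
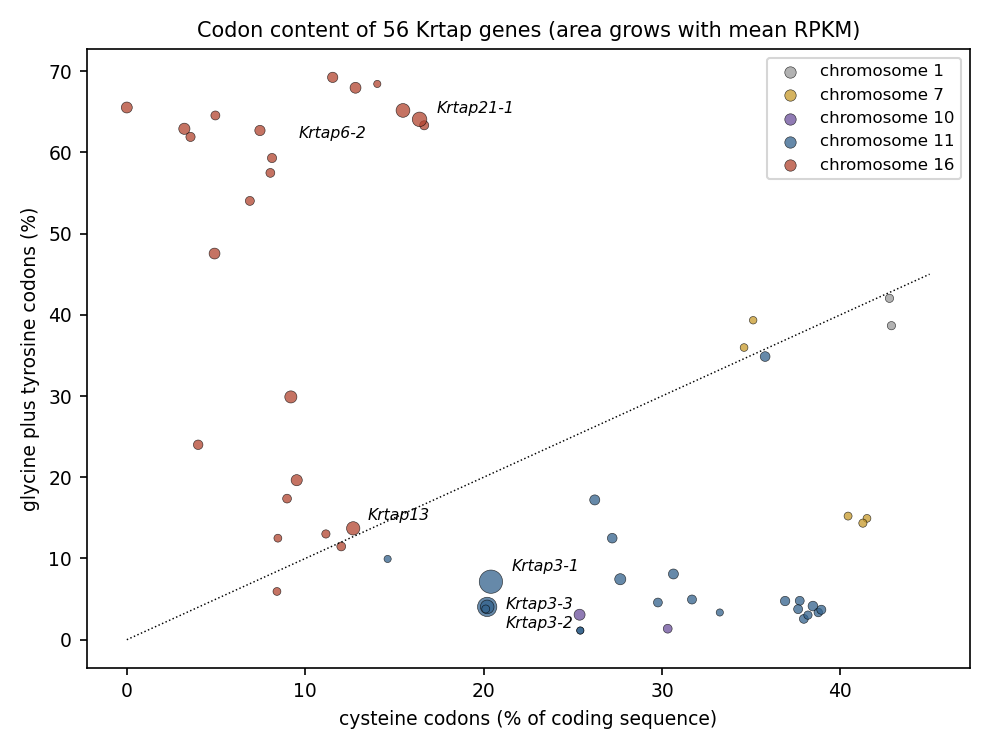
Codon content of the 56 members with an annotated coding sequence, with cysteine codons (%) on the horizontal axis, glycine plus tyrosine codons (%) on the vertical axis, color for the chromosome and point area growing with mean RPKM; the dotted line marks equal shares. The members with the highest levels were Krtap3-1, Krtap3-2 and Krtap3-3 among the cysteine-rich genes, and Krtap6-2 and Krtap21-1 among the genes rich in glycine and tyrosine.

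Sequence upstream of the start site is shown for the 6 members with enough counts to be tested, because these carry the comparison below. Each line gives the 100 bases before the RefSeq start on the gene's strand (minus for all 6, GRCm38.p6), with the motif TATAAA in capitals. The windows are chr11:99566631-99566730, chr11:99556854-99556953, chr11:99550864-99550963, chr16:89420112-89420211, chr16:89403775-89403874 and chr16:88751629-88751728, in the order of the lines.
Krtap3-1: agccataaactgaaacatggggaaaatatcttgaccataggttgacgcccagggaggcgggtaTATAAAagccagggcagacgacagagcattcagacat
Krtap3-2: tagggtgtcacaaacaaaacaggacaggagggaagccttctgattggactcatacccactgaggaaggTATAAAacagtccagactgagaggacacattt
Krtap3-3: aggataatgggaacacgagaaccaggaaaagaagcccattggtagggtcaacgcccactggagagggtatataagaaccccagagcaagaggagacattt
Krtap6-2: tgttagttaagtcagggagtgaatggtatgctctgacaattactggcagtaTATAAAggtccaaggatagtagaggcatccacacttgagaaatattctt
Krtap21-1: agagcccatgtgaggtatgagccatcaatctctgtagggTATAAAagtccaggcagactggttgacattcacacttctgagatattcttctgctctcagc
Krtap13: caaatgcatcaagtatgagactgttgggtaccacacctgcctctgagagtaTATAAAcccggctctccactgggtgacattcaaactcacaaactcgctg
The first T of the motif stood 32 bases before the start in Krtap3-2, 37 in Krtap3-1, 49 in Krtap6-2 and in Krtap13, and 61 in Krtap21-1. No TATAAA was found in the 100 bases of Krtap3-3, which hold tatataag, a near match that the exact search did not count.

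RefSeq promoters were matched for 51 of the 57 members. TATAAA lay wholly between 45 and 16 bases before the start, on the gene's strand, in 32 of these (62.7%), against 2.14% of all 32851 promoters. Searched on both strands of the 250 bases before the start, it was found in 41 members (80.4%), against 12.4% of all promoters. The share in the narrow window was 59.3% among the 27 matched members with 10 or more counts and 66.7% among the 24 with fewer counts, and the share in the wide window was 92.6% and 66.7%.

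The family was a very small part of the RNA. It held 5323 counts in Experimental libraries and 741 in Littermate libraries, which is 0.00388% and 0.00138% of their counts. Summed over all 57 genes, the level was 36.0, 44.8, 45.9, 52.9, 21.1 and 12.3 CPM in Experimental replicates 1 to 6, against 15.9, 9.97, 19.6 and 9.90 CPM in Littermate replicates 1 to 4. Experimental replicates 1 to 4 lay well above every Littermate, replicate 5 lay just above the highest of them, and replicate 6 lay within their range. The means were 35.5 ± 15.8 CPM in Experimental and 13.8 ± 4.74 CPM in Littermate libraries (SD, n = 6 and 4), a ratio of 2.57 with no test, since it is a score over the members. In whole ear, more cells that express these genes and more RNA per cell cannot be told apart. The highest sum stood in Experimental replicate 4, with 11986925 counts, and the next 3 in Experimental replicates 3, 2 and 1, which were the deepest libraries at 41935183, 36911819 and 17847542 counts. Without the 2 deepest libraries the log2 ratio of the family was 1.15, against 1.36 with all libraries. The part of depth in the sums was not tested further.

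The clusters of chromosomes 11 and 16 stood higher in Experimental libraries, and in both a few genes made up most of the sum. The chromosome 11 genes summed to 27.0 ± 12.3 CPM in Experimental and 10.5 ± 3.95 CPM in Littermate libraries, a ratio of 2.57. The 3 Krtap3 genes made up 25.6 ± 12.3 CPM of this in Experimental and 8.79 ± 3.35 CPM in Littermate libraries. The other 20 chromosome 11 genes summed to 1.39 ± 0.334 CPM in Experimental and 1.69 ± 0.663 CPM in Littermate libraries, a ratio of 0.822, so the ratio of the cluster is not one of its genes at large. The chromosome 16 genes summed to 8.10 ± 3.70 CPM in Experimental and 2.99 ± 0.971 CPM in Littermate libraries, a ratio of 2.71. Without its 3 tested genes, named below, the chromosome 16 sum was 2.61 ± 1.24 CPM in Experimental and 1.82 ± 0.730 CPM in Littermate libraries, a ratio of 1.44. Chromosome 11 held 77.1% of the family's counts in Experimental libraries (95% exact Clopper-Pearson interval 75.9 to 78.2) and 75.7% in Littermate libraries (72.5 to 78.8), which are not distinguishable by counting error. The 2 genes of chromosome 10 summed to 0.337 ± 0.0826 CPM in Experimental and 0.259 ± 0.135 CPM in Littermate libraries, a ratio of 1.30. The genes of chromosome 7 had 5 counts in Experimental and 3 in Littermate libraries, and those of chromosome 1 had 5 and 2, too few for a ratio.

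The cysteine class had a ratio of 2.53, and its 29 members other than Krtap3 one of 0.913 (1.88 ± 0.447 CPM in Experimental and 2.06 ± 0.656 CPM in Littermate libraries). The glycine and tyrosine class had a ratio of 2.79, and its 21 untested members one of 1.48 (2.51 ± 1.19 CPM in Experimental and 1.69 ± 0.691 CPM in Littermate libraries). These divisions of the sums were made after the values were seen. Leaving out any 1 library kept the log2 ratio of the family between 1.22 and 1.58.

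Only 6 members passed the filter on low counts and entered the edgeR fit: Krtap3-1, Krtap3-2 and Krtap3-3 on chromosome 11, and Krtap6-2, Krtap21-1 and Krtap13 on chromosome 16. The filter asked for about 0.715 CPM in at least 4 libraries. For Krtap6-2, Krtap21-1 and Krtap13 no Littermate library reached that level, and for Krtap3-2 only 1 of 4 did. Krtap3-1 and Krtap3-3 reached it in all 4 Littermate libraries. Krtap3-2, Krtap6-2, Krtap21-1 and Krtap13 were tested mainly or only because they were high in Experimental libraries. The direction of the tested members is therefore no evidence about the family. The other 51 members were not tested.

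No tested member passed after adjustment over the 16830 genes tested (edgeR quasi-likelihood test, Benjamini-Hochberg, threshold 0.05), against 0.00594% of all tested genes called higher in Experimental libraries and 0.0178% called in either direction. The unadjusted p was under 0.05 with a higher level in 6 of 6 members and in 3.65% of all tested genes, but nothing can be read from that contrast, since the filter had chosen members that were high in Experimental libraries. DESeq2 gave an adjusted p for only 3 of the 6 (Krtap3-1, Krtap3-3 and Krtap21-1) and called Krtap21-1, where 0.227% of genes were called higher. Over all tested genes the median log2 fold change was -0.001 and 49.6% were positive.

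The Krtap3 genes, which encode small cysteine-rich proteins, held 73.3% of the family's counts in Experimental libraries and 63.6% in Littermate libraries, with counts pooled. By library the share ran from 63.5% to 75.3% in Experimental and from 59.6% to 67.0% in Littermate libraries, so the groups overlapped. Krtap3-1 (ENSMUSG00000047564, 99566027 to 99566630) had the highest level per length, at 25.8 ± 12.1 RPKM in Experimental and 8.82 ± 3.86 RPKM in Littermate libraries. Its CPM ran from 5.24 through a median of 17.9 to 23.4 in Experimental libraries, and stood at 7.59, 2.78, 7.18 and 3.97 in Littermate libraries. The groups overlapped, because Experimental replicate 6 fell among the Littermates. The log2 fold change was 1.55 (SE 0.48, 95% interval 0.47 to 2.62, adjusted p = 0.260, edgeR).

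Krtap3-3 (ENSMUSG00000069722, 99550130 to 99550865) ran from 1.69 through a median of 7.82 to 16.5 CPM in Experimental libraries, and stood at 2.03, 2.56, 4.69 and 1.32 CPM in Littermate libraries. Its log2 fold change was 1.61 (SE 0.61, adjusted p = 0.346, edgeR). Krtap3-2 (ENSMUSG00000069721, 99555823 to 99556853) was lower, with 1.16 through a median of 1.85 to 2.94 CPM in Experimental libraries and 1.02, 0.586, 0.711 and 0.701 CPM in Littermate libraries. Every Experimental library lay above every Littermate library for Krtap3-2, and its log2 fold change was 1.42 (SE 0.34, adjusted p = 0.120, edgeR). Krtap3-2 and Krtap3-3 share 28.9% and 41.3% of their 50-base windows with other genes, mainly with each other, so reads of 50 bases may have been split between them or lost.

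Krtap6-2 and Krtap21-1, both high glycine and tyrosine proteins, are next to each other among the members on chromosome 16 and share 6.92% and 7.69% of their 50-base windows with other genes, mainly with each other. Krtap6-2 (ENSMUSG00000062433, 89419326 to 89420111) ran from 0.640 through a median of 1.84 to 2.12 CPM in Experimental libraries, and stood at 0.313, 0.513, 0.498 and 0.390 CPM in Littermate libraries. The groups did not overlap. The log2 fold change was 1.95 (SE 0.35, 95% interval 1.20 to 2.70, adjusted p = 0.0834, edgeR). Krtap21-1 (ENSMUSG00000058368, 89403027 to 89403774) ran from 0.931 through a median of 2.10 to 3.51 CPM in Experimental libraries, and stood at 0.548, 0.660, 0.569 and 0.390 CPM in Littermate libraries. Its groups did not overlap either, and the log2 fold change was 1.98 (SE 0.41, adjusted p = 0.0839, edgeR).

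Krtap13 (ENSMUSG00000050224, 88750747 to 88751628) had the largest log2 fold change of the tested members. It ran from 0.0582 through a median of 1.88 to 3.51 CPM in Experimental libraries, and stood at 0.235, 0.0733, 0.426 and 0.0779 CPM in Littermate libraries. Its log2 fold change was 3.03 (SE 0.90, adjusted p = 0.238, edgeR). Experimental replicate 6, Littermate replicate 2 and Littermate replicate 4 held 1 count each, so the order among these 3 is not measured. In 24.9% of its 50-base windows it matches other genes, mainly 2310057N15Rik.

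In 3 members (Krtap3-2, Krtap6-2 and Krtap21-1) every Experimental library lay above every Littermate library. The same held in 0.761% of tested genes and 0.823% of genes with 10 or more counts, and these shares are no yardstick for members that entered the test mainly or only through their Experimental libraries. Without Experimental replicate 6 the edgeR test called Krtap6-2, Krtap21-1 and Krtap13 (adjusted p = 0.00304, 0.034 and 0.034), where 0.0479% of genes were called higher. Without Littermate replicate 2 it called Krtap6-2 and Krtap21-1 (adjusted p = 0.0233 and 0.0494), where 0.211% of genes were called higher. Without both it called Krtap3-2 as well as Krtap6-2, Krtap21-1 and Krtap13, where 0.605% were called higher. With no filter on low counts it called Krtap3-2, Krtap6-2 and Krtap21-1, where 0.0237% were called higher. Krtap3-1 and Krtap3-3 were called under none of the 23 alternatives, and no tested member changed sign under any alternative in which it was fitted. The alternatives reuse the same libraries, and the filter favored the higher sign for Krtap3-2, Krtap6-2, Krtap21-1 and Krtap13. Their constant sign is therefore no further evidence.

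**Figure D2:**
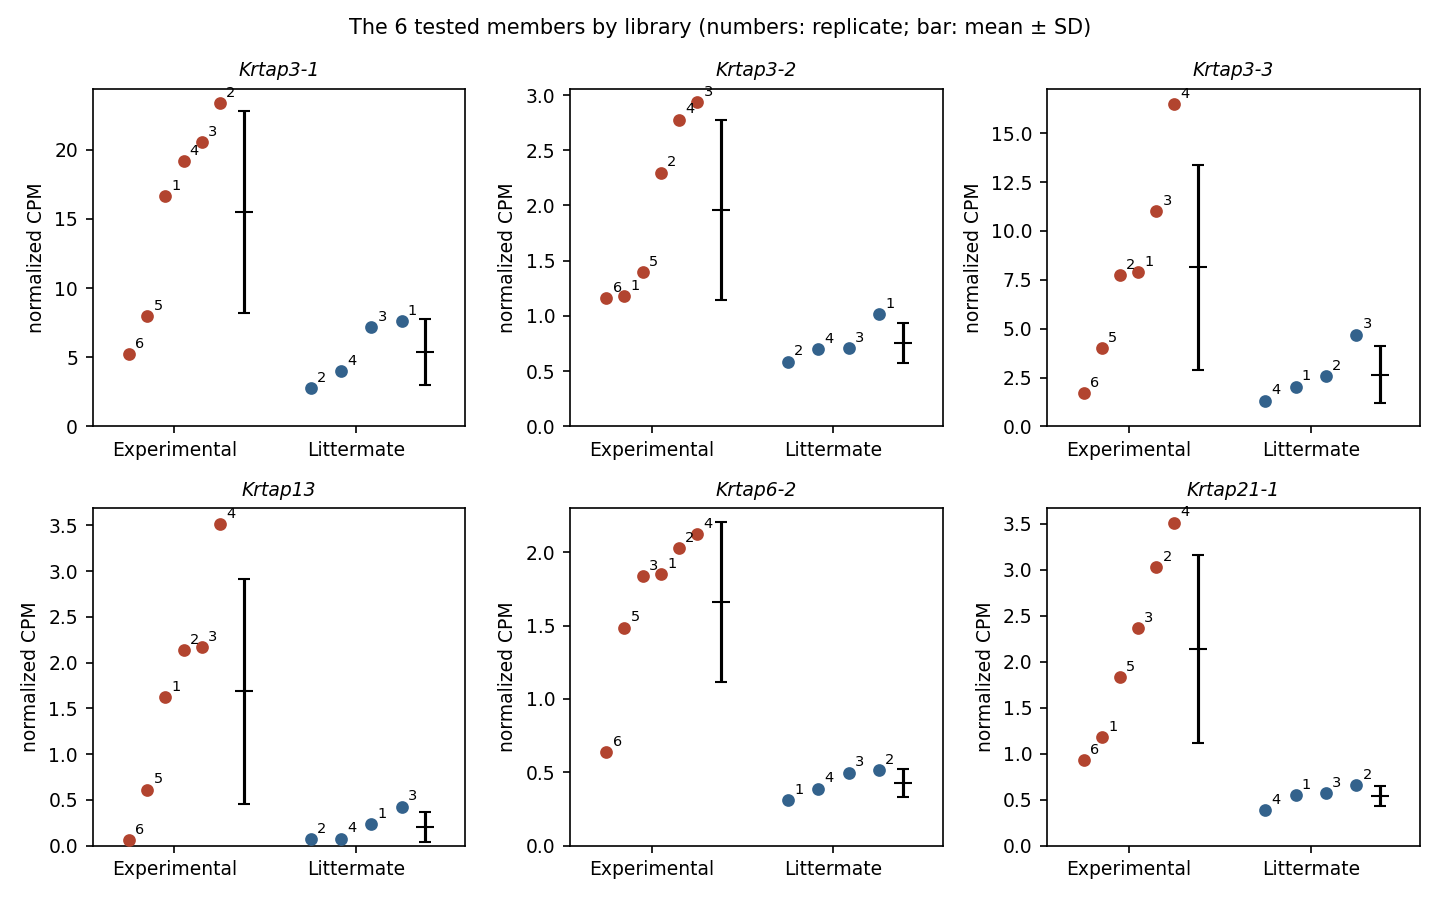
Normalized CPM of the 6 tested members in each library, with Experimental left of Littermate, numbered points for libraries (placed in order of value) and bars for mean ± SD. Experimental replicate 6 is the lowest Experimental library for every member shown, and the groups do not overlap for Krtap3-2, Krtap6-2 and Krtap21-1.

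The untested members did not follow one direction. Of the 26 with 10 or more counts, the mean CPM was higher in Experimental libraries in 12 and lower in 14, and their sum was 3.94 ± 0.951 CPM in Experimental and 3.37 ± 1.15 CPM in Littermate libraries, a ratio of 1.17. With no filter, 52 members could be fitted, with a median log2 fold change of 0.21 and 27 of them positive, against a median of 0.02 over all genes fitted. With counts pooled, the 6 tested members held 88.4% of the family's counts in Experimental libraries (interval 87.5 to 89.2) and 72.1% in Littermate libraries (68.7 to 75.3). These intervals cover counting error only and not the spread between mice. By library the share ran from 78.8% to 90.5% in Experimental and from 69.3% to 73.9% in Littermate libraries, a split that the filter itself favors.

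Some low members, chosen after their values were seen, stood higher in Experimental libraries. Krtap13-1 had 59 counts in Experimental and 5 in Littermate libraries, Krtap6-5 had 45 and 2, and Krtap6-1 had 28 and 3. Krtap7-1, a further high glycine and tyrosine gene, had 84 counts in Experimental and 15 in Littermate libraries, where the Experimental total was 137300376 counts and the Littermate total 53828157. The 4 Krtap6 genes summed to 2.18 ± 0.949 CPM in Experimental and 0.524 ± 0.0917 CPM in Littermate libraries, of which the tested Krtap6-2 gave 1.66 and 0.428 CPM, while Krtap6-3 had no counts.

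Of the 23 subfamilies with no tested member, the mean summed CPM was higher in Experimental libraries in 9, lower in 12, and 0 in both groups in 2. Most rest on few counts. On the higher side Krtap10 had 11 counts in Experimental and 1 in Littermate libraries, Krtap2 had 9 and 1, Krtap11 had 11 and 2, Krtap14 had 7 and 0, and Krtap20 had 6 and 0. On the lower side the subfamilies with most genes were Krtap4 and Krtap19. The 3 Krtap1 genes summed to 0.568 ± 0.204 CPM in Experimental and 0.640 ± 0.207 CPM in Littermate libraries. The 8 Krtap4 genes, which encode cysteine-rich proteins, summed to 0.489 ± 0.244 CPM in Experimental and 0.665 ± 0.428 CPM in Littermate libraries. The 7 Krtap19 genes summed to 0.455 ± 0.248 CPM in Experimental and 0.740 ± 0.367 CPM in Littermate libraries. In the Krtap1, Krtap4 and Krtap19 subfamilies the groups overlapped. The members with most summed counts on chromosomes 10, 7 and 1 were Krtap12-1, with 40 counts in Experimental and 13 in Littermate libraries, Krtap5-4 with 2 and 1, and Krtap28-10 with 3 and 1. No difference was detectable at this depth for them.

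**Figure D3:**
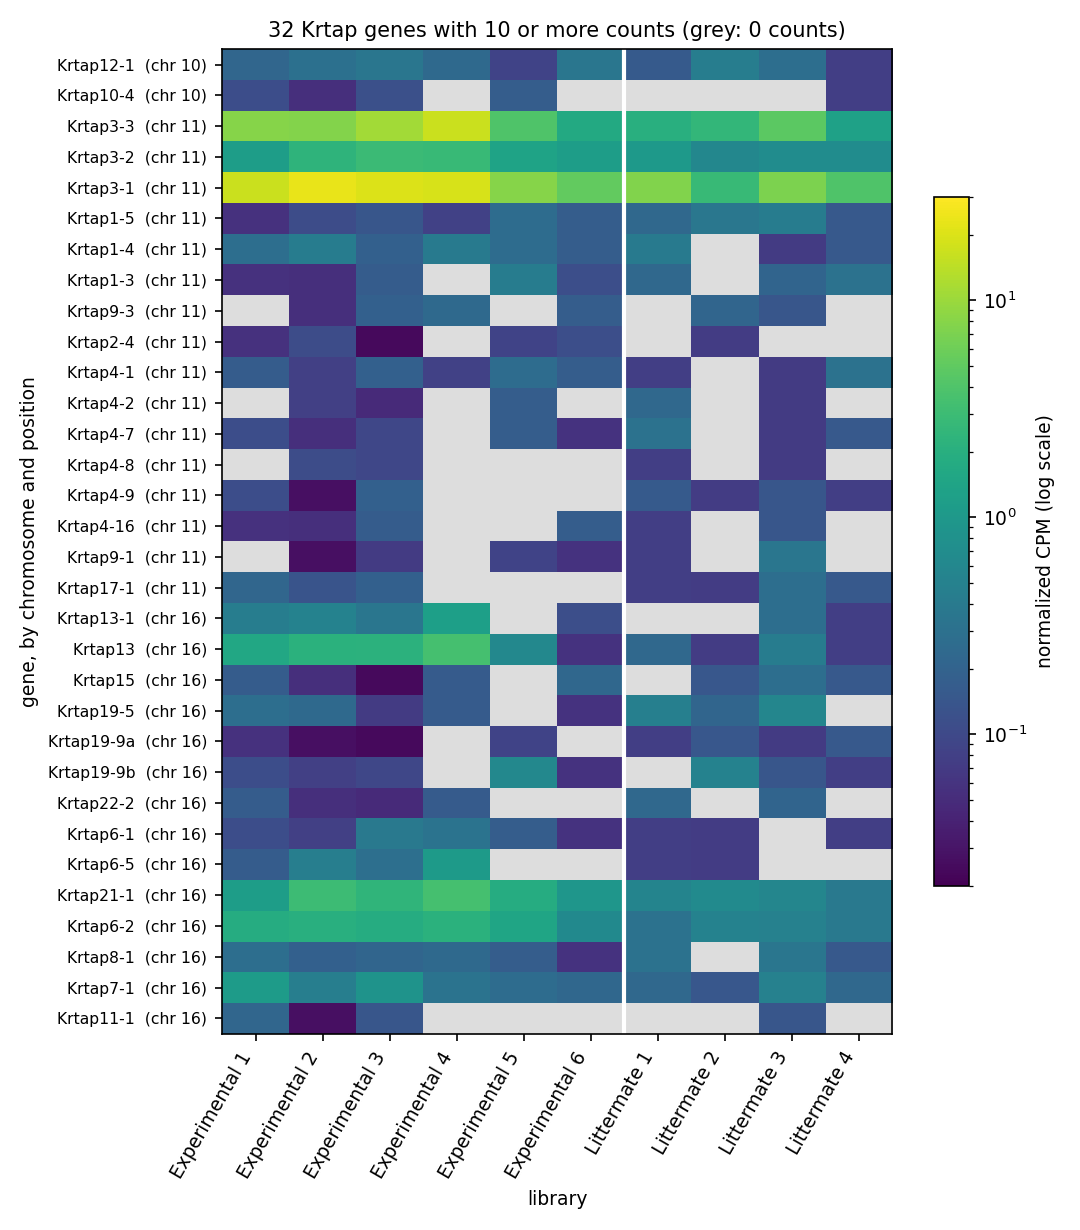
Normalized CPM (log color scale, grey for 0 counts) of the 32 members with 10 or more counts, with genes in rows by chromosome and the Experimental libraries left of the Littermate libraries. Krtap3-1 and Krtap3-3 are the highest, and low members such as the Krtap4 genes hold many zeros in both groups.

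Hair shaft keratins, the filament proteins to which these matrix proteins bind, were measured in the same libraries from a list of 16, of which 15 were in the files and 3 were tested. None of the 3 passed in edgeR or under any alternative, and their median log2 fold change was 1.20. Krt36, a type I hair keratin, ran from 75.6 through a median of 607 to 1140 CPM in Experimental libraries, and stood at 158, 144, 370 and 115 CPM in Littermate libraries (log2 fold change 1.48, SE 0.72, adjusted p = 0.471, edgeR). Krt84, a type II hair keratin, ran from 130 through a median of 851 to 1644 CPM in Experimental libraries, and stood at 290, 234, 672 and 172 CPM in Littermate libraries (log2 fold change 1.17, SE 0.70, adjusted p = 0.560, edgeR). For both, Experimental replicates 1 to 4 lay above every Littermate, replicate 5 within their range and replicate 6 below all of them. The Krtap sums had the same 4 libraries on top.

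**Figure D4:**
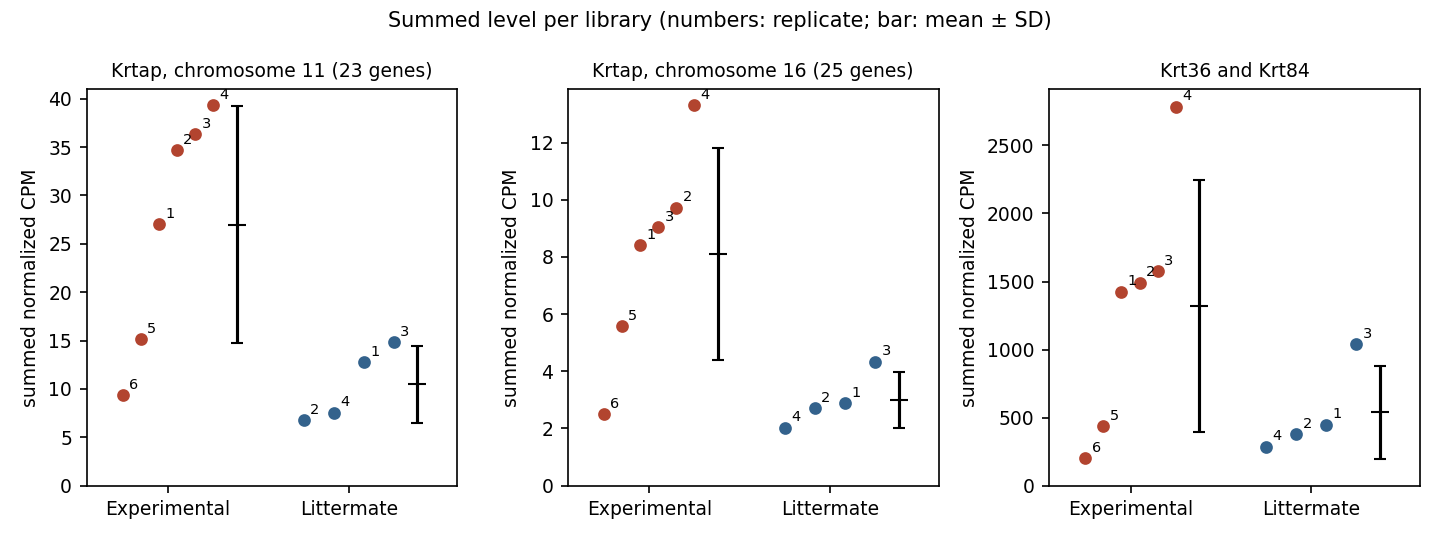
Summed normalized CPM in each library for the chromosome 11 members, the chromosome 16 members, and Krt36 plus Krt84, with Experimental left of Littermate, numbered points for libraries (placed in order of value) and bars for mean ± SD. In all 3 panels Experimental replicates 1 to 4 are above every Littermate. Experimental replicate 6 is within the Littermate range for the Krtap sums and below it for Krt36 plus Krt84. The 13 other hair keratins of the list, which were low, are not plotted.

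The other hair keratins were low. The 12 untested hair keratins had 8 to 111 counts over all libraries and at most 28 in 1 library. Krt34, the third tested one, had a log2 fold change of 1.20 (SE 0.44, adjusted p = 0.306, edgeR), with a median of 1.51 CPM in Experimental and 0.676 CPM in Littermate libraries. The 13 hair keratins other than Krt36 and Krt84 summed to 4.68 ± 1.32 CPM in Experimental and 3.10 ± 0.503 CPM in Littermate libraries. Krt36 and Krt84 summed to 1320 ± 924 CPM in Experimental and 539 ± 342 CPM in Littermate libraries. They made up nearly all of the list's level and do not stand for its other members. Whether the keratin values have a part in the Krtap differences was not tested.

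Other hair follicle lists were read from the same fit. Of the inner root sheath and companion layer list, 7 were tested, 6 were positive and none passed, with a median of 0.62. Krt75, a keratin of the companion layer, had a log2 fold change of 0.62 (adjusted p = 0.221, edgeR). The inner root sheath keratins Krt28 and Krt73 stood at 0.98 and 0.70 (adjusted p = 0.462 and 0.538), and Gata3, a transcription factor of that layer, at -0.32 (adjusted p = 0.284). Of the regulators and shaft enzymes, 15 were tested, 9 were positive and none passed, with a median of 0.08. S100a3, a calcium-binding protein of the hair cuticle, stood at 1.11 (adjusted p = 0.188), and Tchhl1, a trichohyalin-like protein, at 0.63 (adjusted p = 0.153). Msx2, a homeobox factor of the hair matrix, stood at 0.46 (adjusted p = 0.320), and Msx1 at -0.33 (adjusted p = 0.302). Hoxc13, a transcription factor of hair keratin and Krtap genes, was not taken by the rule for named genes and is given for that role, at 0.51 (adjusted p = 0.345). Some of these were called under alternatives: Tchhl1 by DESeq2 (adjusted p = 0.0178), by edgeR without Littermate replicate 2 (adjusted p = 0.0191), and without that library and Experimental replicate 6 (adjusted p = 0.00975). DESeq2 also called S100a3 (adjusted p = 0.0188) and Krt75 (adjusted p = 0.0252). Gata3 was called by edgeR without Littermate replicate 2 (adjusted p = 0.0218), and without both libraries (adjusted p = 0.0251). In the bulge and outer root sheath list 10 were tested, 3 were positive and 7 negative, with a median of -0.28. The list summed to 727 ± 67.5 CPM in Experimental and 756 ± 180 CPM in Littermate libraries, a ratio of 0.962. Only Sox9, a transcription factor of the bulge stem cells, passed, and it fell by 0.73 on the log2 scale (adjusted p = 0.00331, edgeR). With the Y-linked level as a covariate, its log2 fold change was -0.71 and its adjusted p was 0.0957 (edgeR). Which cells of the whole ear gave the Sox9 RNA was not tested.

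**Figure D5:**
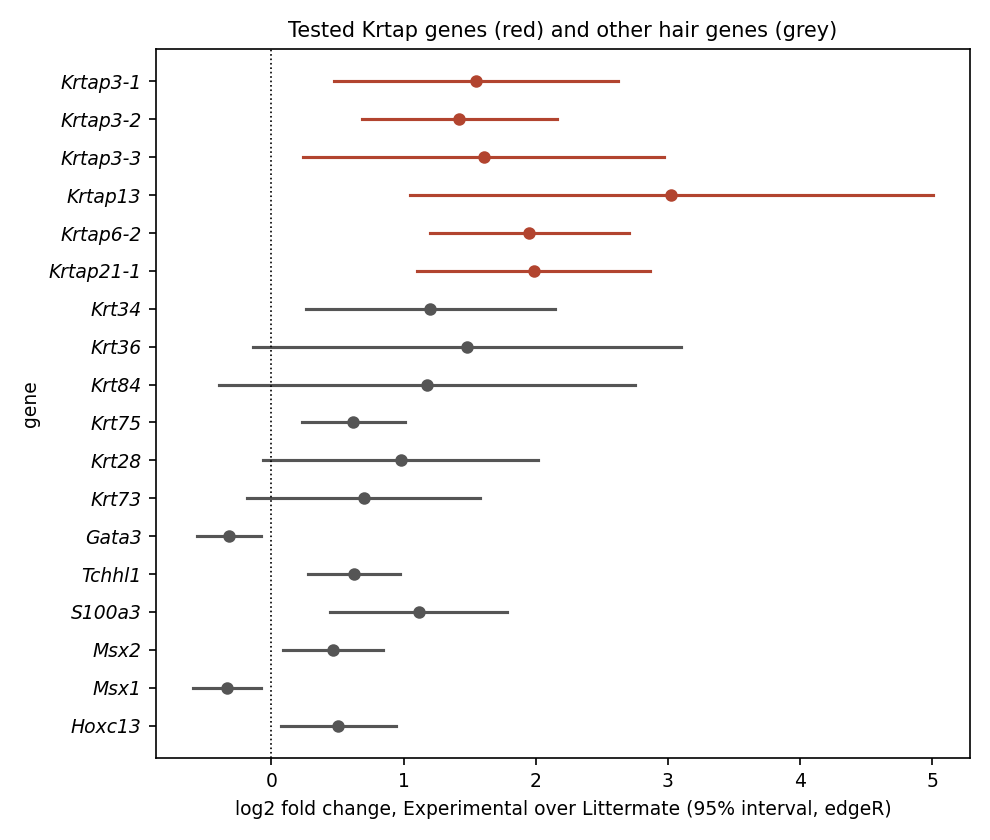
Log2 fold change (Experimental over Littermate) with its 95% interval from the edgeR fit, with the tested Krtap members in red and other hair genes in grey. The grey genes are the named hair follicle genes other than Sox9, with Hoxc13 added. Sox9, the one named gene called, is not drawn (log2 fold change -0.73, adjusted p = 0.00331, edgeR). The 6 tested Krtap members lie between 1.42 and 3.03 with intervals above 0, and the adjusted p-values of all of them are above 0.05. Krtap3-2, Krtap6-2, Krtap21-1 and Krtap13 passed the filter on low counts mainly or only because they were high in Experimental libraries. The shared direction and the intervals above 0 are therefore no evidence about the family.

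Lists of other cell types and of RNA handling were also read beside the Krtap values. Their median log2 fold changes were 0.06 for cell division, 0.12 for sebaceous gland, 0.08 for stress keratins and -0.01 for interfollicular epidermis. They were -0.03 for dermal papilla, -0.16 for cartilage, -0.25 for skeletal muscle, -0.08 for leukocytes and -0.33 for melanocytes, and no member of these lists passed. The mitochondrially encoded genes summed to 4824 to 6109 CPM in Experimental and 5527 to 7565 CPM in Littermate libraries, with 7 of 7 tested genes lower and none called. The Y-linked genes summed to 282 to 340 CPM in Experimental and 229 to 301 CPM in Littermate libraries, so every library came from a male mouse. This sum lay above every Littermate in 4 of the 6 Experimental libraries, so as a covariate it partly follows the group. With the Y-linked level as a covariate the 6 tested members had log2 fold changes of 1.38 to 3.37. Their adjusted p-values were 0.403 to 0.902 (edgeR), and none was called. The part of the mitochondrial genes in the Krtap values was not tested.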

How the data were processed

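RNA of whole ear skin was sequenced from 6 Experimental and 4 Littermate mice, 1 library per mouse, so p-values measure the spread between these mice. Per the labels' protocols, ribosomal RNA was removed by hybridization, cDNA was primed with random hexamers, and 50-base single reads were taken. The protocol mentions no marking of strand, so overlapping genes on opposite strands, such as Krtap14 and Krtap15, may not have been told apart where they overlap. The submitters' processing notes name mm10, STAR 2.0.4b, featureCounts 1.4.5 and Subread. The sources used here do not give the annotation, the strand setting or the counting of reads that matched several genes. The authors deposited a read count for each gene. The deposited CPM equals the count per 1000000 counts of the library, and the deposited RPKM equals that CPM per kilobase of gene length. RPKM was used only to compare levels between genes.

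Symbols were found for 97.3% of the gene identifiers. The counts were fitted with edgeR 4.0.16 in R 4.3.3 (TMM factors of 0.984 to 1.02, filterByExpr by group, robust quasi-likelihood test, two-sided, group as the only term), with Benjamini-Hochberg adjustment over 16830 genes at a threshold of 0.05. Biological variation between mice had a common coefficient of 12.8%. The standard error is the log2 fold change divided by the square root of F. Alternatives were other size factors and filters, DESeq2 1.42.0, voom in limma 3.58.1 with and without quality weights, a replicate block, the Y-linked level as a covariate, a GC correction and libraries left out. The steps were tested on simulated counts.

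Codon content and windows of 50 bases shared exactly with other genes were read from GENCODE M21 transcripts; a class by RefSeq protein had been planned and coding sequences were used in its place. Promoters are from RefSeq (GRCm38.p6). Intervals of shares are exact Clopper-Pearson and, like the floor of 3 counts, cover counting error only. No 2 libraries of the same group agreed within sampling noise, and pairs across the groups were not checked. Named genes were all tested members, the 6 with the highest RPKM, the top member of each chromosome, list members that passed, and the 4 with the lowest p in each of 3 hair lists. Members and lists were chosen with earlier results of these data known.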

Additional observations from a re-analysis of the deposited data

Results flagged for a closer look

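Among 50 groups of values examined, 4 held a library far from the others of its group, and chance alone flags about 1 in 20 groups. Krt36 stood at 369.6 CPM in Littermate replicate 3, the highest Littermate, while the other 3 lay between 115 and 158 CPM. S100a3 stood at 7.758 CPM in Experimental replicate 4, the highest Experimental library, which also had the highest Krtap sum. Msx1 stood at 7.953 CPM in Experimental replicate 5, the highest of its group, and at 6.682 CPM in Littermate replicate 3, the lowest of its group. No Krtap member was among the 4.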

How the results depend on the processing

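Across the alternatives the log2 fold change stayed between 1.84 and 2.21 for Krtap6-2 and between 1.19 and 1.93 for Krtap3-1, while the number of genes called varied widely. Against 3 genes and 0 Krtap members in the edgeR fit, no filter on low counts called 78 genes and 3 members (Krtap3-2, Krtap6-2 and Krtap21-1), DESeq2 called 229 genes and 1 of the 3 tested members to which it gave an adjusted p, and voom with quality weights called 60 genes. Leaving out 1 library at a time called 3 to 343 genes and 0 to 3 members, with the most genes (343) without Littermate replicate 2, 28 without Experimental replicate 6 and 8 without Littermate replicate 3. Without Littermate replicate 2 and Experimental replicate 6 together, 563 genes and 4 members were called. Hair shaft keratins had no call under any of the 23 alternatives. Of the named genes that were fitted (Krtap12-1, Krtap5-4 and Krtap28-10 failed the filter), none changed sign, and Sox9, the one named gene called in the edgeR fit, lost its call with the Y-linked covariate (-0.71, adjusted p = 0.0957). For Krtap3-2, Krtap6-2, Krtap21-1 and Krtap13 the filter favored the sign seen, so its constancy is no further evidence.

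Replicate numbers are shared between the groups. Same-numbered libraries had correlations of 0.0326, -0.0196, 0.0910 and -0.0209, within the range of differently numbered pairs (-0.135 to 0.139). These values show no pairing but cannot exclude a shared litter or processing day, so whether the numbers pair the mice is not settled. Of 16830 genes fitted, the replicate block called 67, 11 of them higher, and 3 members, Krtap6-2, Krtap21-1 and Krtap13. Replicates 5 and 6 exist only in the Experimental group, so in this fit the group difference rests on replicates 1 to 4. Experimental replicates 1 to 4 had higher Krtap sums than replicates 5 and 6. These calls therefore leave out the lowest Experimental libraries and are no further evidence about the members.

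Krtap13 was fitted under 18 and Krtap6-2 under 22 of the alternatives and failed the filter in the others. The 51 members outside the test had at most 99 counts each over all libraries, which limits the differences detectable in them.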

Other observations

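Genes with no Krtap symbol but with 50-base windows shared with members were also read, and 22 of 42 had 10 or more counts. Beside Krtap13 on chromosome 16, and chosen after its values were seen, 2310034C09Rik ran from 0.698 to 10.9 CPM in Experimental libraries and stood at 1.57, 1.76, 1.64 and 1.56 CPM in Littermate libraries. Its log2 fold change was 1.86 (SE 0.61, adjusted p = 0.283, edgeR). Experimental replicate 6 was the lowest library and Experimental replicate 4 the highest. Together, 2310034C09Rik, 2310057N15Rik and Gm5965 averaged 3.86 times as high in Experimental as in Littermate libraries. All 3 were chosen after their values were seen. They do not stand for the other neighbours, some of which, such as Gm10024 and Gm3238, had a lower mean in Experimental libraries.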
